A study of Mus musculus with 2 samples.

Results

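The genes described here belong to the machinery that attaches ubiquitin to proteins, removes it and degrades the tagged proteins. They were taken from a table of 2381 loci that the authors listed as significantly different between Trrap-deleted and control cortex of mouse embryos at stage E14.5. A locus was included when its row held a single symbol from the families Trim, Rnf, Fbx, Usp, Ube2 to Ube4, Cul, Klhl, Kctd, Otud, Psm, March, Herc, Nedd4 or Asb and a value above 0 in both libraries, leaving aside Ube2c. This gave 42 genes, all autosomal, out of 2376 loci with a value above 0 in both libraries. Being in the table is thus part of how the genes were chosen, and only the direction, size and level of their differences are described.

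Transcripts were measured by RNA sequencing in 2 samples, 1 per genotype, on a B6/129 background. The Trrap-deleted cortex carried a pair of floxed Trrap alleles with the Nestin-Cre transgene (F/F NestinCre+). The control, entered as wild type, carried 1 floxed allele and the same transgene (F/+ NestinCre+), so Cre was present in both and the control may have lost 1 copy of Trrap in the same cells. Nestin-Cre acts mainly in neural progenitors and their descendants, so cells of other origin in a cortex sample, such as microglia, would keep the floxed alleles. How many embryos went into each sample is not given in the labels. Values are FPKM, fragments counted per transcript length and per library size. With 1 library per genotype there is no replicate error and no test could be run here; "listed" means that a locus passed the authors' own test, and a gene that is not listed cannot be called unchanged. In bulk tissue, fewer cells of a type and less RNA per cell cannot be told apart.

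Ubiquitin is passed from an activating enzyme (E1) to a conjugating enzyme (E2) and then, with the help of a ligase (E3), to a target protein. RING ligases such as the Rnf, Trim and March proteins bring the E2 and the target together directly. Cullins build larger ligases, in which F-box, Klhl, Kctd or Asb proteins serve as exchangeable adaptors that choose the target. Deubiquitinases take ubiquitin off again, and the proteasome degrades proteins that carry ubiquitin chains. In developing cortex these enzymes are known for timing the cell cycle, for axon and dendrite growth and for the turnover of synaptic proteins. Trrap also has a link to this system, since it is the scaffold of SAGA, a histone-modifying complex that carries the deubiquitinase Usp22.

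Of the 42 genes, 21 encode RING ligase family proteins (10 Rnf, 8 Trim and 3 March), 16 encode cullin adaptors (6 F-box, 6 Klhl, 2 Kctd and 2 Asb) and 1 is a cullin. The remaining 4 were the E2 genes Ube2d1 and Ube2ql1, the deubiquitinase gene Usp1 and the proteasome gene Psmc6. A label of ligases and deubiquitinases therefore rests, for deubiquitinases, on 1 gene. The annotation (GENCODE M21) holds 487 protein-coding genes with such names, of which 8.62% were listed, close to the 8.57% of all 21924 protein-coding genes that had a row of their own. Neither number was restricted to genes expressed in cortex, so these shares and those below may not be for sets of like expression. For the RING families the listed share was 12.8% of 164 genes, for the adaptors 10.5% of 153, for Usp and Otud genes 1.56% of 64 and for proteasome genes 2% of 50. No Herc, Nedd4, Ube3, Ube4 or Otud gene was listed.

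The genes moved both ways, in the proportion seen across the table. In the Trrap-deleted cortex 25 were higher and 17 lower (59.5% higher), where 58.0% of all loci were higher and 42.0% lower. Their median log2 fold change was 0.48, against 0.54 for all loci. At least 2-fold higher were 7 of the 42 genes, where 25.3% of all loci were, and at least 2-fold lower were 6, where 13.6% of all loci were. The direction of the whole table depends on how the 2 libraries are scaled: setting the median of all loci to 0 takes 0.54 off every log2 fold change and leaves 20 genes higher and 22 lower. The 5 genes that change sides under that rescaling are March6, Fbxw8, Klhl2, Rnf216 and Kctd3. The median is taken over loci listed because they differ, so it need not mark an absence of change. Scaling the libraries to equal summed FPKM goes the other way, with a median of 0.83 for the genes, 25 higher and 17 lower. Here and below, "the rescaling" means the one to a median of 0. The RING families divided nearly evenly, 11 higher (9 after the rescaling) and 10 lower. Of the cullin adaptors 12 of 16 were higher (9 after the rescaling). The share of all loci that were higher was 58.0% as deposited and 50% after the rescaling, and no difference from it was tested.

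Summed over genes, the RING families stood at 385 FPKM in control and 386 in Trrap-deleted cortex, while their single members differed up to 5.46-fold. The adaptors summed to 199 and 247 FPKM. After the rescaling to a median of 0 both sums were below the control in the Trrap-deleted library, at 265 FPKM for the RING families and 170 for the adaptors. All 42 genes together came to 798 FPKM in control and 790.2 in Trrap-deleted cortex, or 542 after the rescaling. The summed FPKM of all loci went from 128623 to 101091 as deposited. The rescaling divides every Trrap-deleted value by 1.46, so the sum of all loci is lower still after it. The most abundant members were not the same in both libraries. In the control the highest levels were those of Ube2d1, Trim35 and Psmc6, which were all lower in the Trrap-deleted cortex. In the Trrap-deleted cortex the highest were Fbxw5, Rnf11 and March6, which were all higher than in the control (March6 only as deposited, not after the rescaling). Only loci that differed were listed and the genes were ranked within 1 library, so these directions are partly set by the choice.

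**Figure D1:**
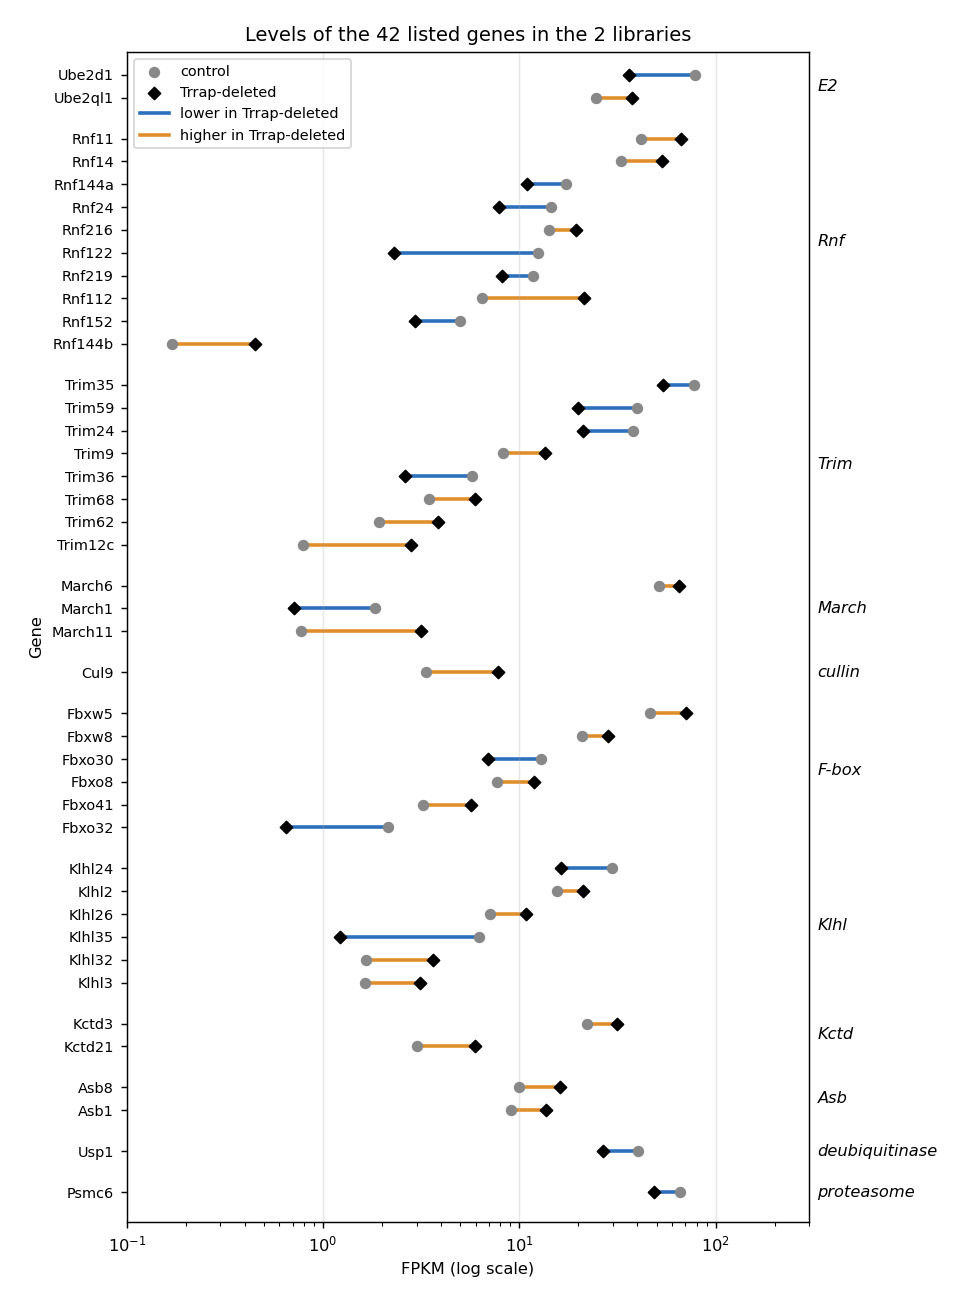
FPKM of each of the 42 genes (log axis) in the control (grey circle) and the Trrap-deleted library (black diamond), grouped by role, with 1 library per genotype and no error bars. Blue lines join the 17 genes that were lower in the Trrap-deleted library and orange lines the 25 that were higher; Rnf122 and Klhl35 have the longest blue lines.

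The Rnf proteins are RING ligases with otherwise unlike domains, and 5 of the 10 listed were higher and 5 lower. Rnf122, which encodes a RING protein anchored in membranes (chromosome 8, 32222205 to 32243772 on mm9), stood at 12.5 FPKM in control and 2.29 in Trrap-deleted cortex. At 5.46-fold lower it had the largest decrease of the 42 genes, and in the authors' deposited table its q-value is written as 0. Rnf112 (chromosome 11, 61261944 to 61267650), which encodes a RING protein with a GTPase domain found mainly in brain, went the other way, from 6.44 to 21.3 FPKM. The authors' deposited table gives this 3.32-fold increase a q-value of 1.29e-09. Rnf11, whose small product works with ligases of the Nedd4 type, went from 41.7 to 66.9 FPKM (1.60-fold higher) and was the most abundant of the Rnf genes in both libraries.

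A subgroup of RING ligases called RBR, for RING-between-RING, passes ubiquitin through a cysteine of its own as HECT ligases do. From textbook knowledge, and grouped after their values were seen, 4 of the listed Rnf genes are RBR ligases. Rnf14, a ligase first known as a partner of the androgen receptor, went from 32.9 to 53.6 FPKM. Rnf216, whose targets include the synaptic protein Arc, went from 14.1 to 19.4 FPKM, an increase that turned to a log2 fold change of -0.08 when the median of all loci was set to 0. The paralogues Rnf144a and Rnf144b moved in opposite directions. Rnf144a was lower, with 17.2 FPKM in control and 10.9 in Trrap-deleted cortex, and Rnf144b was higher, at 0.170 and 0.449 FPKM. Rnf144a was the more abundant of the pair in both libraries, 101.6 times Rnf144b in control and 24.4 times in Trrap-deleted cortex, and their sum went from 17.4 to 11.4 FPKM. Rnf144b is the weakest of the 42 genes, so its fold change rests on very low values.

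The other 3 Rnf genes were all lower. Rnf24, another membrane RING protein, fell from 14.48 to 7.86 FPKM. An exon of Rnf24 overlaps an exon of Pank2 on the opposite strand in the annotation, and whether the read counting used strand is not known here, which makes its value uncertain. Rnf152, a ligase of the lysosomal membrane that acts on nutrient signalling, fell from 4.98 to 2.96 FPKM. Rnf219, which encodes a ligase that acts on the replication origin complex, fell from 11.7 to 8.20 FPKM.

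Trim proteins carry a RING, a B-box and a coiled coil, and 4 of the 8 listed were higher and 4 lower. The 3 most abundant in the control were among the lower ones. Trim35 went from 77.2 to 53.8 FPKM. Trim59, a Trim protein with a membrane anchor (chromosome 3, 68839204 to 68848677), went from 39.7 to 19.96 FPKM, 1.99-fold lower. Trim24, a chromatin reader with a bromodomain that also acts as a ligase for p53, went from 37.9 to 21.2 FPKM. The fourth, Trim36, which binds microtubules, was 2.19-fold lower (5.73 to 2.62 FPKM). The higher ones were all weaker in the control than Trim59 and Trim24. Trim9, a brain ligase of the netrin pathway of axon branching, went from 8.26 to 13.5 FPKM, Trim68 from 3.48 to 5.97 FPKM, and Trim62 from 1.92 to 3.85 FPKM. Trim12c, a mouse relative of the antiviral gene Trim5, went from 0.792 to 2.81 FPKM (3.54-fold higher). Its locus in the table (chromosome 7, 111392971 to 111502020) is 7.46 times as long as the annotated gene and lies in a cluster of close copies, so this value is uncertain. In summed FPKM the Trim genes went from 175 to 124 as deposited and to 84.8 after the rescaling, and the Rnf genes from 156 to 194 as deposited but to 133 after the rescaling.

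March proteins are RING ligases set in membranes. March6, a ligase of the endoplasmic reticulum that acts on a sterol-synthesis enzyme, had a level far above the other pair, 51.5 FPKM in control and 64.8 in Trrap-deleted cortex. Its increase of 1.26-fold was the smallest difference among the 42 genes and became a log2 fold change of -0.21 when the median of all loci was set to 0. March11, a ligase of transport vesicles known from sperm development (chromosome 15, 26238803 to 26339331), had the largest increase of the 42 genes, from 0.777 to 3.15 FPKM (4.05-fold). March1, which lowers surface MHC class II in immune cells, went from 1.83 to 0.715 FPKM. All 11 listed genes of a 20-gene microglial list were higher in the Trrap-deleted library, their summed FPKM going from 16.2 to 41.4. Of all loci 58.0% were higher, and 77.5% of those under 5 FPKM in the higher library. Which cells the March1 reads came from was not tested.

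**Figure D2:**
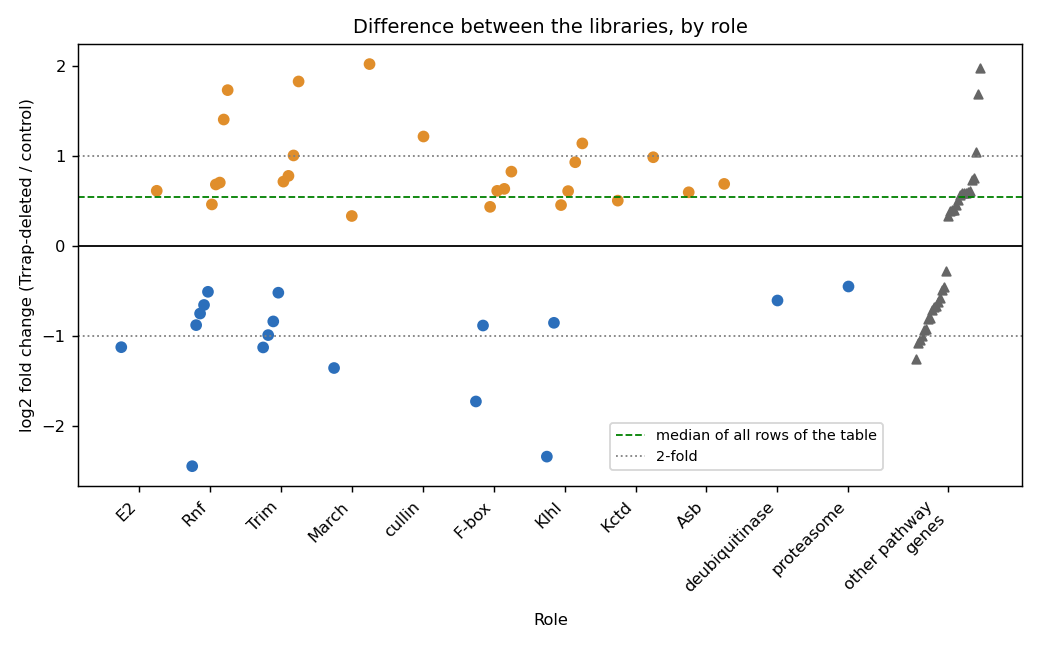
Log2 fold change (Trrap-deleted over control) of each of the 42 genes by role, with values above 0 in orange and below 0 in blue, and of 33 other listed genes of the pathway as grey triangles. The dashed line is the median of all loci in the table, 0.54, and the dotted lines mark 2-fold; the Rnf, Trim and March columns spread to both sides, and the Kctd and Asb genes all lie above 0, with Kctd3 below the dashed line.

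Of the cullins, the arms of the larger ligases, only Cul9 was listed among 8. Cul9, a very large cullin that holds p53 in the cytoplasm, went from 3.33 to 7.75 FPKM (2.32-fold higher). Its locus in the table (chromosome 17, 46576527 to 46995457) is 9.14 times as long as the annotated gene, so reads of neighbouring genes may be included and the value is uncertain.

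F-box proteins choose targets for ligases built mostly on Cul1, and Fbxw8 also works with Cul7, and 4 of 6 listed were higher (3 after the rescaling). Fbxw5, whose targets include a centriole assembly protein, was the most abundant, with 46.2 FPKM in control and 70.5 in Trrap-deleted cortex. Fbxw8, which takes part in dendrite growth, went from 20.9 to 28.2 FPKM, and its log2 fold change became -0.11 with the median of all loci at 0. Fbxo8, which also has a Sec7 domain, went from 7.68 to 11.9 FPKM and the neuronal gene Fbxo41 from 3.22 to 5.70 FPKM. The lower pair are best known from muscle. Fbxo30 (Musa1) fell from 12.8 to 6.94 FPKM. Fbxo32, the atrophy ligase atrogin-1, fell 3.32-fold, from 2.15 to 0.647 FPKM, at a locus 3.80 times as long as the gene in the annotation, which makes the value uncertain.

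The Klhl proteins are adaptors of Cul3 with a BTB domain and a Kelch propeller, and 4 of 6 were higher (3 after the rescaling). Klhl35 (chromosome 7, 106614514 to 106623226) was lower by 5.07-fold, from 6.22 to 1.23 FPKM, the second largest decrease of the 42 genes. It was also the gene nearest to the authors' threshold, with a q-value of 0.0341 in the authors' deposited table against their limit of 0.05. Klhl24, an adaptor with kainate receptor subunits and keratins among its partners, fell from 29.5 to 16.3 FPKM, with a q-value of 1.35e-07 in the authors' deposited table. The closely related Klhl2 and Klhl3, both of which target WNK kinases, were both higher. Klhl2 went from 15.5 to 21.2 FPKM, a log2 fold change of 0.45 that became -0.09 with the median of all loci at 0, and Klhl3 went from 1.63 to 3.11 FPKM. Klhl32 was 2.20-fold higher (1.66 to 3.65 FPKM), and Klhl26 went from 7.12 to 10.9 FPKM.

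All 4 Kctd and Asb genes were higher as deposited, and 3 of them after the rescaling. Kctd3, a partner of HCN channels, went from 22.2 to 31.5 FPKM, a log2 fold change of 0.50 that became -0.04 with the median of all loci at 0. Kctd21, an adaptor that acts on a histone deacetylase of the Hedgehog pathway, went from 2.998 to 5.93 FPKM (1.98-fold higher). Asb1 and Asb8 carry ankyrin repeats and a SOCS box that binds Cul5 ligases. They were at similar levels and moved by similar amounts, Asb1 from 9.07 to 13.7 FPKM and Asb8 from 10.02 to 16.1 FPKM.

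Of the 4 enzymes that act before or after the ligases, 3 were lower, where 42.0% of all loci were. All 4 reached 20 FPKM or more in the higher library, and 44.4% of all loci in that range were higher. Ube2d1 (chromosome 10, 70717560 to 70748010), an E2 that serves many different ligases, went from 78.8 to 36.1 FPKM. It was 2.18-fold lower and had the largest difference in FPKM units of all 42 genes, and the authors' deposited table gives it a q-value of 1.78e-05. The E2 gene Ube2ql1 was higher, at 24.5 and 37.4 FPKM. Usp1, the deubiquitinase that acts on Fancd2 and PCNA in DNA repair, fell from 40.5 to 26.7 FPKM. Psmc6, an ATPase of the proteasome cap, fell from 66.2 to 48.7 FPKM, and none of the other 48 genes in a list of 49 proteasome subunits, regulators and assembly factors was listed.

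Genes of the same pathway with other names were also listed both ways. Of 320 such genes in lists of E1 enzymes, ubiquitin-like proteins, other ligases, cullin ligase parts, anaphase-promoting complex, deubiquitinases and ubiquitin receptors, counted without Ube2c, 33 were listed, 17 higher (11 after the rescaling) and 16 lower (median log2 fold change 0.33). Of all protein-coding genes 8.57% had a row of their own, a share not restricted to genes expressed in cortex. At the top of the pathway Uba1, the main E1 gene, went from 271 to 175 FPKM, and the ubiquitin gene Rps27a from 141 to 85.6 FPKM. Uba1 lies on the X chromosome, and the libraries also differed in Y-linked transcripts. The 3 listed Y-linked genes summed to 0.122 FPKM in control and 41.97 in Trrap-deleted cortex. The part of embryo sex in the value of Uba1 was not tested. The largest decreases were in Rhobtb3, a BTB protein (34.0 to 14.2 FPKM), Ivns1abp, a Kelch protein (156 to 73.7 FPKM), and Ccnf, an F-box protein of the cell cycle (16.4 to 7.94 FPKM). The largest increases were in Neurl1a, a RING ligase (1.34 to 5.27 FPKM), the autophagy receptor gene Optn (0.619 to 1.996 FPKM) and Anapc13 (79.9 to 165 FPKM). Of 10 listed cullin ligase parts in this group 6 were higher (4 after the rescaling) and 4 lower. The shares of all loci beside them are again 58.0% and 50%. Of the 7 genes of the SAGA deubiquitinase module and its relatives, Atxn7 alone was listed (9.03 to 12.4 FPKM, log2 fold change 0.46, below 0 after the rescaling), and Usp22 was not.

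Across the table, weak loci were mostly higher and abundant loci more often lower, and the genes were set beside loci of like level. Loci that reached less than 5 FPKM in the higher library were higher in 77.5% of cases, and 6 of 9 of the genes in this range were, with a median log2 fold change of 1.28 for the loci and 1.00 for the genes. From 5 to under 20 FPKM, 64.1% of all loci and 10 of 17 genes were higher, with medians of 0.62 and 0.59. At 20 FPKM or more, 44.4% of all loci and 9 of 16 genes were higher, with medians of -0.43 and 0.38. After the rescaling, 5 of these 16 genes and 31.1% of these loci were higher, with medians of -0.16 for the genes and -0.98 for the loci. The difference between these shares was not tested. The abundant genes that were higher both as deposited and after the rescaling are Fbxw5, Rnf11, Rnf14, Rnf112 and Ube2ql1. Those that were lower include Ube2d1, Trim35, Psmc6, Usp1 and Trim59.

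**Figure D3:**
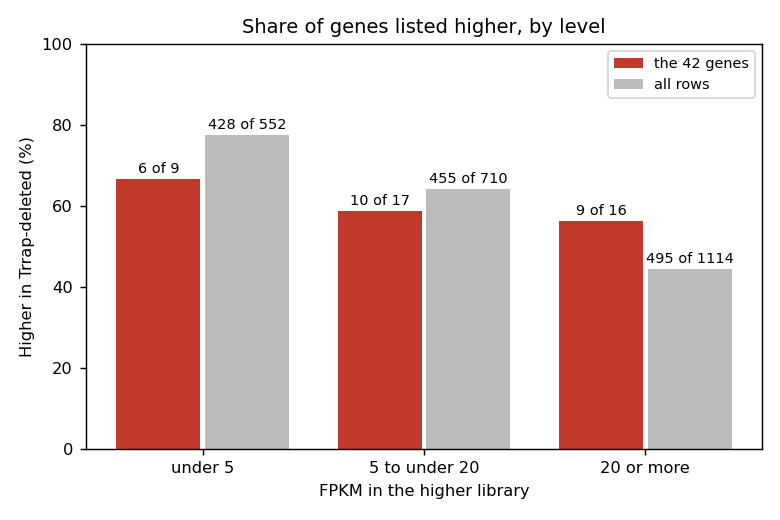
Share of genes higher in the Trrap-deleted library (percent, from 0) by the FPKM in the higher library, for the 42 genes (red) and all loci (grey), with the counts above the bars. The grey bars fall from 77.5% to 44.4% and the red ones stand on 6 of 9, 10 of 17 and 9 of 16 genes.

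**Figure D4:**
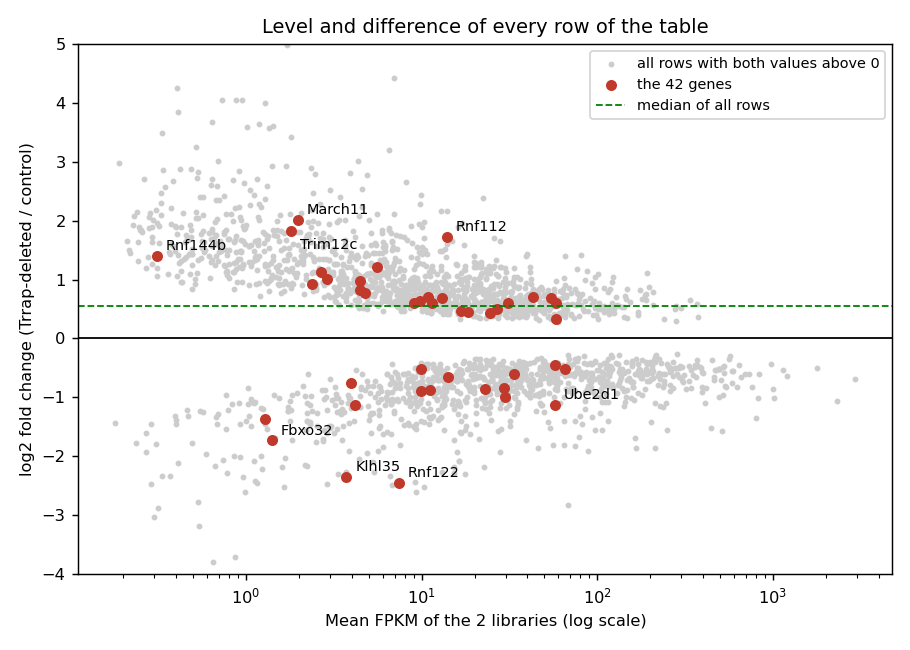
Log2 fold change (Trrap-deleted over control) against mean FPKM of the 2 libraries (log axis) for all loci (grey) and the 42 genes (red), with 9 loci outside the range of the vertical axis. The empty band around 0 is where loci were not listed, and it is wider at low FPKM, so weak genes such as Rnf144b and March11 appear only with large differences.

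Promoter sequences are shown for the 3 largest decreases and 3 largest increases among genes with 1 RefSeq promoter entry and at least 1 FPKM in the higher library, so that the stretch upstream can be read beside their values. Each runs 5′ to 3′ from 250 bases before to 50 after the annotated start (RefSeq, GRCm38.p6; the loci above are on mm9). Capitals mark 5 motifs, searched on both strands: the CCAAT box, which reads ATTGG on the other strand; the CHR element of many cell-cycle genes, TTTGAA or in reverse TTCAAA; the GC box, GGGCGG or in reverse CCGCCC; the E-box CACGTG, a site of Myc, which recruits Trrap; and the CRE, which reads TGACGTCA on both strands. None of these motifs contains another.
Klhl35, chr7:99465754-99466053, plus strand: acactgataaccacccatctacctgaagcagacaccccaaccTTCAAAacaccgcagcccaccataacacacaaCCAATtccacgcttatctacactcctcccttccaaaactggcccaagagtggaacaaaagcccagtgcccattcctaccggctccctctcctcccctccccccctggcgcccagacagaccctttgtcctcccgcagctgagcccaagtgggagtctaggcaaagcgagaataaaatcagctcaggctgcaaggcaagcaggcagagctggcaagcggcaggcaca
Ube2d1, chr10:71285213-71285512, minus strand: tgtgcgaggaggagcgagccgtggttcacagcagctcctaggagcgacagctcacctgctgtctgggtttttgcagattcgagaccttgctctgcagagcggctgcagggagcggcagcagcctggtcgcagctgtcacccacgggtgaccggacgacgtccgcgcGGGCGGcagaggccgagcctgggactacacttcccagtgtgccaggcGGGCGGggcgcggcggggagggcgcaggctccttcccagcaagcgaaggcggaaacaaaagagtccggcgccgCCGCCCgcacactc
Trim59, chr3:69044693-69044992, minus strand: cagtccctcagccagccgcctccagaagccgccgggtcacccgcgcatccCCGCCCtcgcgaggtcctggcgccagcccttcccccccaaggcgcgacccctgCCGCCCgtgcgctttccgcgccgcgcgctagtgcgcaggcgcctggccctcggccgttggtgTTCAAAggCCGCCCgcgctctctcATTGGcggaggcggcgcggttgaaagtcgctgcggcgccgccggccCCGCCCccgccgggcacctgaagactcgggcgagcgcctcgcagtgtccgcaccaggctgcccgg
March11, chr15:26308798-26309097, plus strand: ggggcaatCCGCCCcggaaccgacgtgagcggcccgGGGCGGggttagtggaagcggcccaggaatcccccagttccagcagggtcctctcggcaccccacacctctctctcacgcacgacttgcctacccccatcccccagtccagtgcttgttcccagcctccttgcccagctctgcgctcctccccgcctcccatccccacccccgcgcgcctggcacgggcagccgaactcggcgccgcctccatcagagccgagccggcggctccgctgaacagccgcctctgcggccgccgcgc
Trim12c, chr7:104353300-104353599, minus strand: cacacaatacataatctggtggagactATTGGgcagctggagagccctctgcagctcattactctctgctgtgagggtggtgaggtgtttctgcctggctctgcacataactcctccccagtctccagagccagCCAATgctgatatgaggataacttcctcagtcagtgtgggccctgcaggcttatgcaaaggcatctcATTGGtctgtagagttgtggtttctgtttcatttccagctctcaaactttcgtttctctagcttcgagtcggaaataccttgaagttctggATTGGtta
Cul9, chr17:46546339-46546638, minus strand: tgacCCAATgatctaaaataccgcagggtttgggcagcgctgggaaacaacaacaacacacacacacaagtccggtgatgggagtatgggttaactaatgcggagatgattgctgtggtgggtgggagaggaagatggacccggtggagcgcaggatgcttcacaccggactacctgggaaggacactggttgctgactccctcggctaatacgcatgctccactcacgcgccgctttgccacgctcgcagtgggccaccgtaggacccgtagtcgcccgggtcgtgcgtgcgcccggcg

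Counting the start as position 1, Trim59 held a CHR element at -85 and a CCAAT box at -61 in the reverse orientation among 4 GC boxes, and Klhl35 held a CHR element at -208 and a CCAAT box at -176. Ube2d1 had 3 GC boxes and none of the other motifs. March11 had 2 GC boxes, Trim12c 4 CCAAT boxes and Cul9 a CCAAT box at -246. Of the 42 genes, 32 matched RefSeq promoters, with 39 entries. A CCAAT box was present in 30.8% of these entries and in 37.4% of all 32851 entries, and a CHR element in 12.8% and 17.9%. GC boxes were present in 59.0% of the entries and in 35.7% of all entries, with a median GC content of 63.7% and 52.7%. E-box and CRE sequences were in none of the 39 entries, and in 7.15% and 1.79% of all entries. The set of all entries was not restricted to listed genes or to genes expressed in cortex, so these may not be sets of like expression. Counts by direction are of genes with a match in any entry, so they cannot be set beside the shares of entries. CCAAT boxes were found in 5 of 11 lower and 5 of 21 higher genes. CHR elements were found in 3 of 11 and 2 of 21, and GC boxes in 8 of 11 and 14 of 21. A match is a run of letters and no evidence of a bound factor, and no difference in these shares was tested.

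Other differences between the 2 libraries accompany every value above. In marker lists, all 7 listed of 15 meningeal genes were higher (summed FPKM 11.97 to 33.1), as were both listed of 15 vessel genes and the 3 listed of 6 Y-linked genes (0.122 to 41.97), and 4 of 5 listed of 15 ventral telencephalic genes were lower. Of all loci 58.0% were higher and 42.0% lower, and of those under 5 FPKM in the higher library 77.5% were higher. Of 10 erythroid genes 2 were listed, Hbb-y higher and Tfrc lower. Of 15 cortical markers 4 were listed, Neurod6, Bcl11b and Fezf2 lower and Neurog2 higher (log2 fold change 0.32, below 0 after the rescaling), with a summed FPKM of 495 in control and 443 in Trrap-deleted cortex. The part of these differences in the values of the 42 genes was not tested. Trrap had no row in the table and gave no check of the labels.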

How the data were processed

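The deposited table covers 2 cortex libraries, 1 per genotype. Per the submitters' processing notes, reads were aligned with TopHat2 to mm9; software for counting and testing was not given in the sources used here. Both of the authors' value columns were read as FPKM from the column layout, per the file headers, which do not write the unit. P-values and q-values were deposited by the authors, and the table holds only rows they marked significant (highest q-value 0.0500). Depth is unknown, so no counting interval could be set.

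Log2 fold changes were computed without a pseudocount (Python 3.11.15, pandas 2.3.3) and differed from the deposited ones by at most 1.18e-05. Locus starts were moved to 1-based counting. GENCODE M21 and RefSeq tables, on another build, served for names, gene lengths and promoters. Called means 2-fold or more. Every gene found by the rule is named. The genes and lists were chosen with earlier results of these data known. Alternatives were 2 rescalings, pseudocounts, filters on FPKM and q-value, and sets of rows; the code was tested on simulated data.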

Additional observations from a re-analysis of the deposited data

How the results depend on the processing

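No paired analysis was possible because each genotype had 1 library. With the median of all loci set to 0, the median log2 fold change of the genes turned from 0.48 to -0.063, 3 genes were at least 2-fold higher and 16 lower, and the values of March6 (-0.21), Fbxw8 (-0.11), Klhl2 (-0.092), Rnf216 (-0.084) and Kctd3 (-0.042) changed sign. With equal summed FPKM the median was 0.83, beside 0.89 for all loci, and 15 genes were at least 2-fold higher. A pseudocount of 1 FPKM gave a median of 0.43, beside 0.46 for all loci, with 4 genes at least 2-fold higher and 3 lower. The share of all loci past 2-fold was counted only as deposited. The 2-fold counts under other settings therefore have no such share beside them and cannot be read as a trait of these genes. At a q-value under 0.01, 13 genes were higher and 13 lower, and the median was -0.0065, among fewer genes (26). The median was 0.46 at 1 FPKM or more and 0.45 at 5 FPKM or more, where 2 genes were at least 2-fold higher, and 0.50 without the proteasome gene. Without the 3 genes at loci over 2 times the annotated length, a setting chosen after seeing the data, it was 0.46. Numbers higher and lower otherwise stayed within 1.5 times those as deposited. The shifts under the rescalings and pseudocounts follow from constants applied to every locus. Those under the filters go with smaller sets of genes, and no cause was tested for them. The spread between embryos is unknown, and with depth unknown no limit of detection can be given.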

Other observations

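A pair of rows with names of these families lay outside the rule. The row that holds Ube2v1, an E2 variant, also names Tmem189 and Gm20431 and went from 61.9 to 92.1 FPKM, which cannot be assigned to a single gene. Ube2c, left aside by the rule, went from 66.2 to 30.2 FPKM, a log2 fold change of -1.13 beside -1.13 for Ube2d1.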
